A study of Mus musculus with 6 samples.

Results

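Aminoacyl-tRNA synthetases, the enzymes that load each tRNA with its amino acid, were followed across the 6 RNA-seq libraries of mouse bone-marrow-derived macrophages. Members were chosen by gene symbol alone: the 1-letter code of an amino acid followed by ars, with or without a closing 1 or 2, plus Eprs and the phenylalanine genes Farsa, Farsb and Fars2. The rule found 37 of the 16775 genes in the files, 20 of the cytosolic class and 17 of the mitochondrial class, whose names end in 2. No measured value entered the rule. Bone marrow cells of C57BL/6 mice had been grown for 5 days in DMEM with 10% FBS and M-CSF at 10 ng/ml, which drives them to become macrophages. All 6 libraries then had 24 hours with IL4, the cytokine of alternative activation, in 1 library alone and in the other 5 combined with 1 compound each: fatostatin, betulin, 25-HC, PF429424 and 1,10-Phen. The labels give no dose and no target for any compound, do not spell out 25-HC or 1,10-Phen, and name no animals. From general knowledge, fatostatin and betulin inhibit SREBP processing, and the title of the series names SREBP2. No library without IL4 is among the 6, so each comparison asks what a compound added to IL4 went with. Each treatment has 1 library, so every ratio compares 2 libraries and not 2 conditions, and no test between treatments was possible.

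A synthetase recognises its own amino acid and its own tRNAs and joins them in a reaction that consumes ATP, and the charged tRNA then goes to the ribosome. Mammalian cells keep separate nuclear genes for the enzymes of the cytosol and of mitochondria, except that Gars (glycine) and Kars (lysine) each serve both compartments. Several cytosolic enzymes travel together with 3 scaffold proteins as the multi-synthetase complex, and Eprs holds the glutamate and proline enzymes in a single chain. When amino acids run short or the endoplasmic reticulum is stressed, kinases phosphorylate the initiation factor eIF2alpha, translation of the transcription factor ATF4 goes up, and ATF4 is known to switch on genes of amino acid uptake, amino acid synthesis and tRNA charging. ATF4 pairs with C/EBP proteins at a composite site written TGATGNAA, where N is any base.

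That composite site was searched on both strands in RefSeq promoters of build GRCm38.p6, from 250 bases before to 50 bases after each start, and 27 of the 37 members had an entry. Entries were missing for 10 members, among them Cars, Hars, Hars2, Lars, Nars, Pars2, Rars, Vars and Wars. The letters occurred in entries of 5 of the 13 cytosolic genes that had one (38.5%), namely Aars, Gars, Iars, Tars and Yars. They occurred for 0 of the 14 mitochondrial genes with an entry. The letters occurred in 3.97% of all 32851 promoters in the table and in 2.7% of the 16624 promoters of genes in the files. Members were counted by gene, and these background shares, like those of the other motifs below, by single promoter entry. The 5 matching promoters are shown because their genes were each at least 1.5-fold higher with PF429424. They stand together with Sars, which was also higher but had no match, and Qars, which was not higher and had none. Sars was not alone in this: Eprs, Farsb and Mars had entries, were higher with PF429424 and held no match. Capitals mark the composite site, which reads on the opposite strand in Aars, Gars, Iars and Tars. The stretches lie at chr8:111033685-111033782 (Aars, plus strand), chr6:55037926-55038000 (Gars, plus), chr15:11399659-11399718 (Tars, minus), chr4:129189895-129189924 (Yars, plus), chr13:49682126-49682155 (Iars, plus), chr3:108445260-108445359 (Sars, minus) and chr9:108507905-108508004 (Qars, plus).
Aars: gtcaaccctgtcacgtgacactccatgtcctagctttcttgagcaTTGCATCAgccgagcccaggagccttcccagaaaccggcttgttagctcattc
Gars: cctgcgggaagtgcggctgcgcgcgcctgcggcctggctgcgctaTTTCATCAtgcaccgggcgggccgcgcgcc
Tars: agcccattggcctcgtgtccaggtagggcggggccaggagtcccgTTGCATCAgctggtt
Yars: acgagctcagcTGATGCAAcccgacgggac
Iars: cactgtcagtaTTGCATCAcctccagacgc
Sars: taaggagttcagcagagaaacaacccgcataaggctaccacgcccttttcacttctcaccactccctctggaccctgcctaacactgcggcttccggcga
Qars: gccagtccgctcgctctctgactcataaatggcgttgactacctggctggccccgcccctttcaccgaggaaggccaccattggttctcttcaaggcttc

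The site began at base -112 from the start in Aars, -30 in Gars, -15 in Tars, 4 in Yars and 8 in Iars, and Aars held a second match from base 10. Starts here are those of the promoter entries. For Aars and Yars the stretches lie inside the gene bounds, which begin at chr8:111027778 and chr4:129189734. Matches counted from the gene bounds were not computed. The E-box letters CACGTG occurred for 4 of 13 cytosolic genes (Aars, Farsb, Iars and Tars) and for 1 of 14 mitochondrial genes (Ears2). They occurred in 7.15% of all promoters and in 8.99% of those of genes in the files. The STAT letters TTCNNNGAA, a general site of the STAT family, occurred for 2 cytosolic genes (Aars and Kars) and for 1 mitochondrial gene (Nars2). Their shares were 8.3% of all promoters and 7.16% of those of genes in the files. A match describes letters in a window and is not evidence of binding.

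The 6 libraries held 20181396 to 21169667 estimated counts, and the member with the fewest had 88 counts in its lowest library, so no member was limited by a count of 0. Levels are given as normalized CPM, counts scaled to library size (CPM) and then between libraries, and ratios as log2 with exact Clopper-Pearson 95% intervals that cover counting error only. A member was called higher or lower when its ratio was at least 1.5-fold and its interval excluded no change. All 37 members were among the 11898 genes compared, those with a CPM of at least 1 in at least 1 library, and every member reached that CPM in all 6 libraries. All 8 macrophage markers were detected in every library, with summed levels of 7122 to 11337 normalized CPM. Among them, Adgre1, Csf1r and Mertk were at least 1.5-fold lower than IL4 with betulin, 25-HC and PF429424. Lyz2 was also lower with 25-HC, and Csf1r, Mertk, Fcgr1 and Lyz2 were lower with 1,10-Phen. Cd14 went the other way, with log2 ratios of 1.48 with 25-HC and 0.94 with 1,10-Phen. Of all genes compared, 6.33% were lower with betulin, 12.5% with 25-HC, 11.3% with PF429424 and 20.3% with 1,10-Phen. The shares higher were 9.02% with 25-HC and 15.3% with 1,10-Phen. The 8 neutrophil markers summed to 192 with IL4, 263 with fatostatin, 299 with betulin, 311 with 25-HC, 54.3 with PF429424 and 22.5 with 1,10-Phen, with Ly6g at 0 in the last 2. Stromal markers summed to 35.2 to 99.8. B cell, T cell, mast cell and erythroid markers each summed to under 2. The 4 markers of dividing cells summed to 974 with IL4, 644 with fatostatin, 772 with betulin, 519 with 25-HC, 385 with PF429424 and 17.5 with 1,10-Phen. They were thus lowest in the same 3 libraries in which the cytosolic synthetases were highest, and neutrophil markers were lowest in 2 of these 3. The part of any of these markers in the synthetase values was not tested. In such bulk libraries fewer cells of a type and less RNA per cell cannot be told apart.

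The summed cytosolic class was at least 1.5-fold higher with 25-HC, PF429424 and 1,10-Phen, and the summed mitochondrial class differed from IL4 by much less. The 20 cytosolic genes summed to 1725 normalized CPM with IL4, 1889 with fatostatin, 2130 with betulin, 2774 with 25-HC, 3106 with PF429424 and 3033 with 1,10-Phen. The 17 mitochondrial genes summed to 302 with IL4, 318 with fatostatin, 313 with betulin, 309.6 with 25-HC, 314 with PF429424 and 262 with 1,10-Phen. Every compound library therefore had a larger cytosolic sum than IL4 alone, by 1.10-fold with fatostatin and 1.8-fold with PF429424, while the mitochondrial sum was lowest with 1,10-Phen, at 0.867 of its IL4 level.

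**Figure D1:**
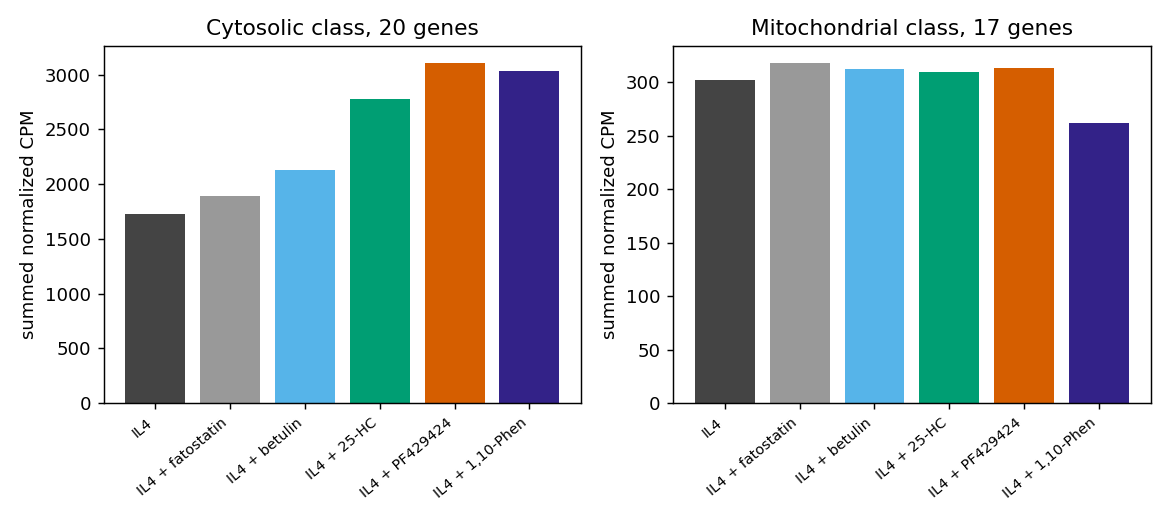
Summed normalized CPM (y axis, from 0) of the 20 cytosolic (left) and 17 mitochondrial (right) synthetase genes in each of the 6 libraries, 1 bar per library and no error bar, since each treatment has 1 library. The cytosolic bars go from 1725 with IL4 to 3106 with PF429424, and the mitochondrial bars stay between 262 and 318.

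Per gene, the median log2 ratio of the cytosolic class to IL4 was 0.11 with fatostatin, 0.24 with betulin, 0.57 with 25-HC, 0.85 with PF429424 and 0.70 with 1,10-Phen. The mitochondrial medians were 0.09, 0.01, 0.03, -0.002 and -0.19 in the same order, and the medians of all genes compared lay between -0.02 and 0.02. Cytosolic members stood above IL4 in 15 of 20 cases with fatostatin, 19 with betulin, 19 with 25-HC, 20 with PF429424 and 14 with 1,10-Phen. Mitochondrial members did so in 13 of 17 cases with fatostatin, a share like the cytosolic one, and in 9, 9, 8 and 5 cases with the others, and of all genes compared 49.1% to 52.3% did. All 5 ratios of a gene share the same IL4 library, so a low IL4 value would lift all 5.

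**Figure D2:**
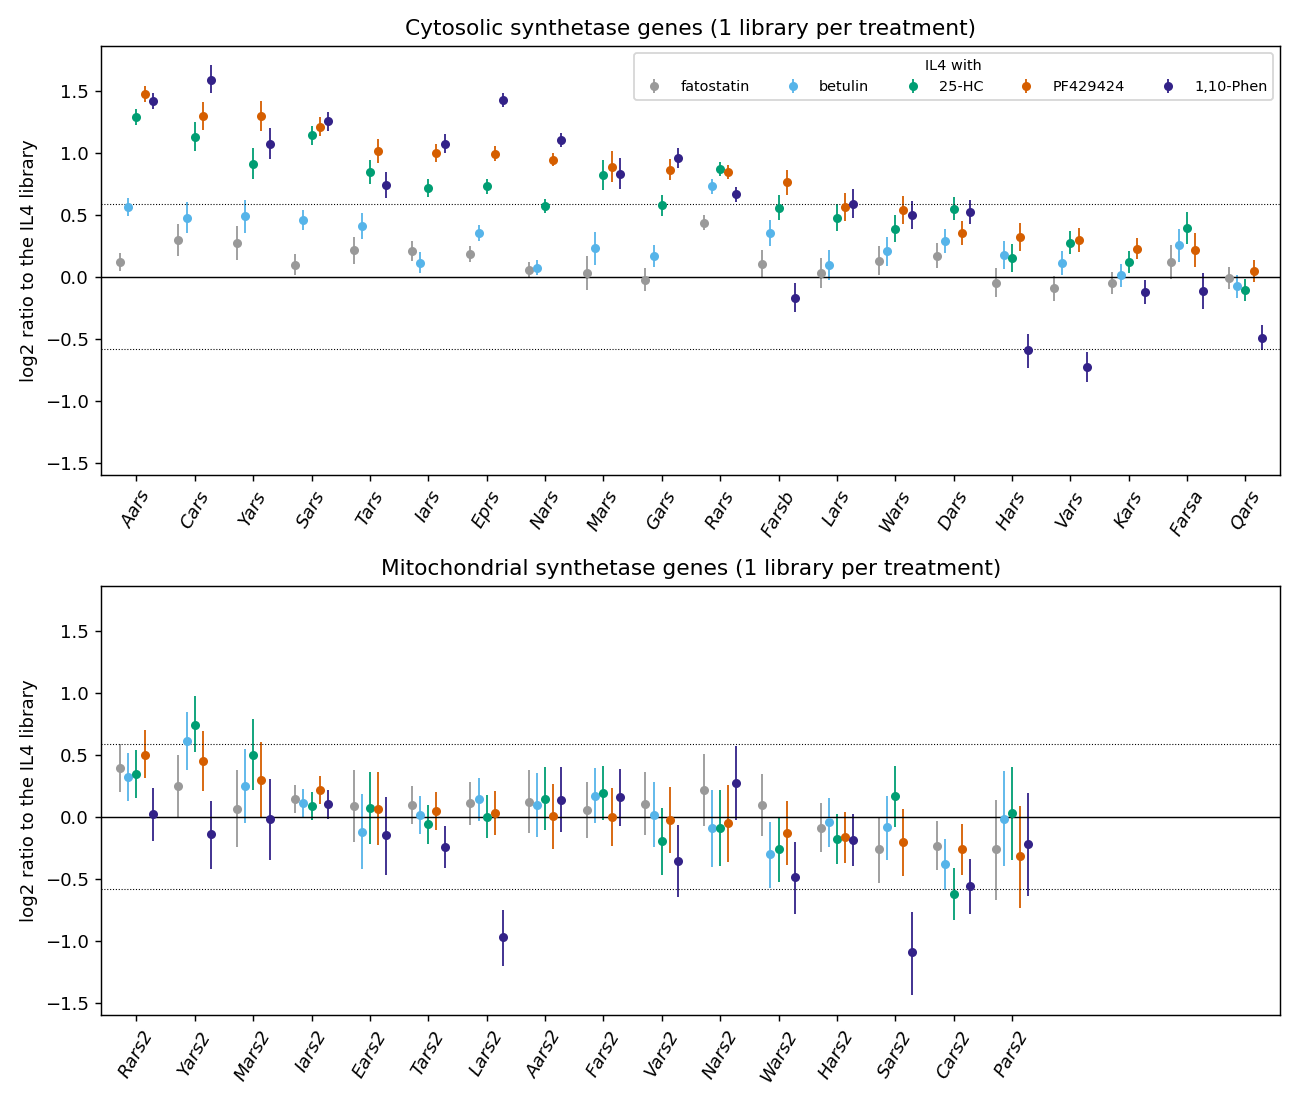
Log2 ratio to the IL4 library (y axis) of all 20 cytosolic (top) and 16 of the 17 mitochondrial (bottom) members, ordered by the PF429424 ratio, with 1 point per compound and bars for the 95% counting interval. Dotted lines mark 1.5-fold. Most cytosolic points for 25-HC, PF429424 and 1,10-Phen lie above 0, from -0.73 (Vars) to 1.59 (Cars). The mitochondrial points scatter around 0 with 25-HC and PF429424 and lie mostly below 0 with 1,10-Phen.

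At the 1.5-fold rule the fatostatin library had 0 cytosolic members higher and 0 lower, where 2.46% of all genes compared were higher and 2.77% lower. The betulin library had 1 higher, Rars, against 4.98% of all genes, and 0 lower against 6.33%. With 25-HC 9 of 20 were higher against 9.02% of all genes, namely Aars, Cars, Eprs, Iars, Mars, Rars, Sars, Tars and Yars, and 0 were lower against 12.5%. With PF429424 12 of 20 were higher against 7.39% of all genes, the additions being Farsb, Gars and Nars, and 0 were lower against 11.3%. With 1,10-Phen 12 of 20 were higher against 15.3% of all genes, without Farsb and with Lars, and 2 were lower, Hars and Vars, against 20.3%. Scaled by library totals instead, which puts the median of all genes at -0.25 in that comparison, 9 cytosolic members were higher and 3 lower, with Qars added to the lower ones, where 9.83% of all genes were higher and 29.3% lower. At least 2-fold higher were 3 members with 25-HC (3.27% of all genes), 5 with PF429424 (2.49%) and 7 with 1,10-Phen (7.59%).

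With 25-HC and PF429424 the highest ratios belonged to enzymes outside the multi-synthetase complex. Aars, the alanine enzyme whose promoter holds 2 matches to the composite site, had 126 normalized CPM with IL4, 136 with fatostatin, 186 with betulin, 306 with 25-HC, 349 with PF429424 and 336 with 1,10-Phen. The last 3 libraries stood well apart from the first 3, with betulin between IL4 and that group. Its log2 ratio was 1.28 (1.22 to 1.35) with 25-HC, 1.47 (1.41 to 1.54) with PF429424 and 1.42 (1.35 to 1.48) with 1,10-Phen. Aars overlaps Ddx19b, a helicase gene that had 539 to 814 counts, and no source used here says whether the counting used strand.

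Cars (chr7:143557230-143600090, GRCm38.p6), which charges cysteine, had 42.4, 52.0, 58.9, 92.8, 104 and 128 normalized CPM in the order IL4, fatostatin, betulin, 25-HC, PF429424 and 1,10-Phen. Its 1,10-Phen level was the highest of its 6, and its log2 ratio there, 1.59 (1.48 to 1.70), was the largest of any member in any library. Sars, for serine, had 96.3, 103, 132, 212, 223 and 229.8 in that order. The log2 ratios of Sars with 25-HC, PF429424 and 1,10-Phen were close together at 1.14, 1.21 and 1.25. Yars, for tyrosine, had 37.7, 45.5, 52.8, 70.9, 92.6 and 79.4, and was highest with PF429424, with a log2 ratio of 1.29 (1.18 to 1.42). Tars, for threonine, had 62.4, 72.3, 82.8, 112, 126 and 104, and was likewise highest with PF429424. The ratios of Tars were 0.85 with 25-HC, 1.01 with PF429424 and 0.74 with 1,10-Phen.

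Nars, the asparagine enzyme, and Gars were near IL4 with fatostatin and betulin. Nars had 187 normalized CPM with IL4, 194 with fatostatin, 196 with betulin, 277 with 25-HC, 359.5 with PF429424 and 401 with 1,10-Phen, and its last 3 log2 ratios were 0.57, 0.94 and 1.10. Gars had 87.9, 86.4, 98.6, 131, 160.0 and 171 in the same order. Both were highest with 1,10-Phen, and the 25-HC ratio of Gars, 0.57 (0.49 to 0.66), was just under 1.5-fold. Wars, for tryptophan and known as an interferon-inducible gene, had 53.8, 58.8, 62.0, 70.4, 78.1 and 76.0, and none of its ratios reached 1.5-fold, the highest being 0.54 (0.43 to 0.65) with PF429424.

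**Figure D3:**
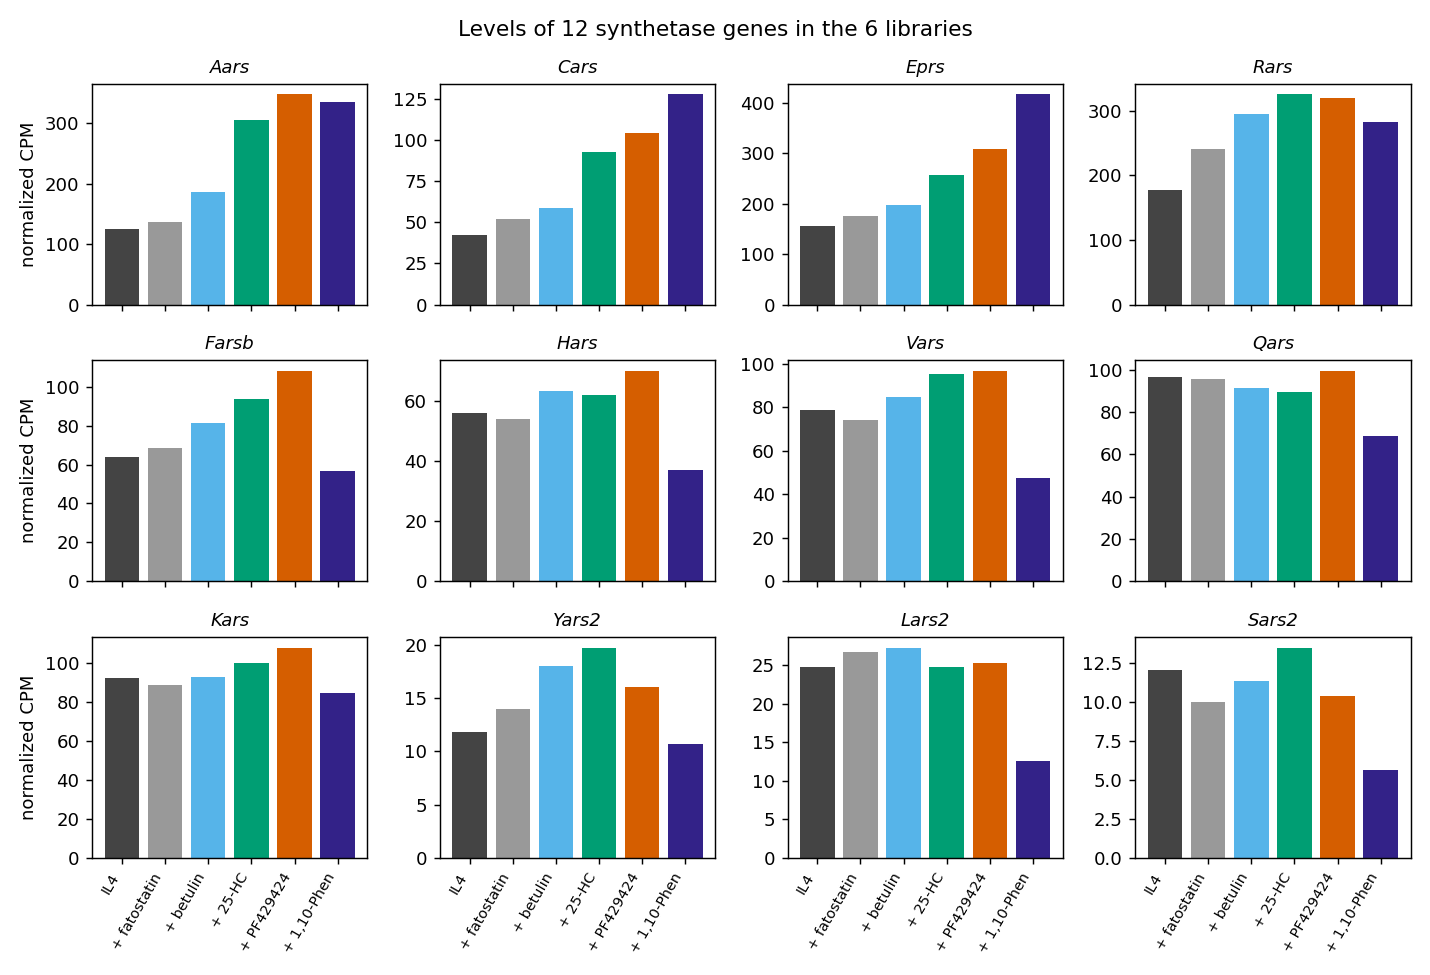
Normalized CPM (y axes, each from 0) of 12 synthetase genes in the 6 libraries, 1 bar per library. Aars, Cars and Eprs are highest in the last 3 libraries, Farsb, Hars and Vars are lowest with 1,10-Phen, and over the first 5 libraries Kars stays between 88.9 and 108 and Qars between 89.5 and 99.5.

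Members of the multi-synthetase complex differed among themselves. Eprs (chr1:185361417-185428360), the joined glutamate and proline enzyme, had 156 normalized CPM with IL4, 177 with fatostatin, 198 with betulin, 258 with 25-HC, 309 with PF429424 and 418 with 1,10-Phen. Its log2 ratio with 1,10-Phen, 1.42 (1.37 to 1.48), exceeded that with PF429424, 0.99 (0.93 to 1.05). Iars, the isoleucine enzyme, had 107, 124, 116, 176, 214 and 226 in the same order, again highest with 1,10-Phen. Lars, its leucine counterpart, had 52.2, 53.3, 55.8, 72.6, 77.0 and 78.5, and only its 1,10-Phen ratio, 0.59 (0.48 to 0.70), reached 1.5-fold, by a margin within counting error.

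Rars (chr11:35808381-35834528), which charges arginine, had the broadest pattern. Its level was 178 normalized CPM with IL4, 241 with fatostatin, 295 with betulin, 326 with 25-HC, 320.1 with PF429424 and 282 with 1,10-Phen. Rars was the member with the highest ratio in the fatostatin library, 0.44 (0.37 to 0.50), and in the betulin library, 0.73 (0.67 to 0.79), and its IL4 library was the lowest of the 6. Mars, for methionine, had 39.6, 40.4, 46.4, 70.0, 73.3 and 70.5, which separates the last 3 libraries from the first 3. The value of Mars is uncertain: the gene overlaps 71 bases of the ATF4 target Ddit3, which had 469 to 1621 counts, and its estimated counts were not whole. Estimated counts were also not whole for Farsb, Iars and Vars, while 27 of the 37 members had whole counts in all libraries. Farsb overlaps 2332 bases of Sgpp2, which had 3 to 19 counts. Dars, for aspartate, went from 72.4 with IL4 to 106 with 25-HC, and none of its ratios reached 1.5-fold.

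Kars and Qars, also of the complex, stayed near IL4, apart from Qars with 1,10-Phen. Kars had 92.2, 88.9, 92.8, 100.04, 108 and 84.5 normalized CPM in the order IL4, fatostatin, betulin, 25-HC, PF429424 and 1,10-Phen. Qars, the glutamine enzyme, had 96.4, 95.8, 91.3, 89.5, 99.5 and 68.6. For Qars 1,10-Phen was the lowest library, and its 1,10-Phen ratio was -0.49 (-0.59 to -0.39), short of 1.5-fold. Over the 8 complex members the median ratio was 0.63 with 25-HC, 0.70 with PF429424 and 0.63 with 1,10-Phen, against 0.57, 0.90 and 0.85 over the 12 other cytosolic members. The ranges of the groups overlapped in each library. A split by catalytic fold, class I with 9 members and class II with 10, leaving out Eprs which holds both, gave medians of 0.72 and 0.56 with 25-HC, 0.85 and 0.81 with PF429424, and 0.66 and 0.63 with 1,10-Phen.

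The cytosolic class lay on both sides of IL4 with 1,10-Phen, with 12 members called higher and 2 lower, where 15.3% and 20.3% of all genes were. Vars (chr17:35000907-35016329), for valine, had 78.8 normalized CPM with IL4, 73.8 with fatostatin, 84.8 with betulin, 95.2 with 25-HC, 96.6 with PF429424 and 47.5 with 1,10-Phen. Hars, for histidine, had 55.9, 54.1, 63.1, 62.0, 69.9 and 37.0 in that order. In both genes 1,10-Phen was the lowest library by a wide margin, with ratios of -0.73 (-0.85 to -0.61) for Vars and -0.59 (-0.73 to -0.46) for Hars. Farsb, the beta subunit of the phenylalanine enzyme, had 63.8, 68.7, 81.4, 93.8, 108 and 56.8, and Farsa, its alpha subunit, had 39.7, 43.2, 47.3, 52.2, 46.1 and 36.7. Both subunits were also lowest with 1,10-Phen, though short of 1.5-fold at -0.17 for Farsb and -0.11 for Farsa. With PF429424 the beta subunit had the larger ratio, 0.76 against 0.21.

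The comparison of compound libraries with each other leaves out IL4. Between PF429424 and 25-HC 0 of 37 members differed by 1.5-fold, where 4.74% of all genes compared were higher and 4.71% lower, and the largest cytosolic ratios were 0.38 (0.29 to 0.48) for Yars and 0.38 (0.33 to 0.43) for Nars. Between 1,10-Phen and PF429424 0 members were higher, where 14.5% of all genes were, and 3 cytosolic and 3 mitochondrial members were lower, where 18.8% of all genes were. These were Vars at -1.02 (-1.14 to -0.91), Farsb at -0.93 (-1.04 to -0.82), Hars at -0.92 (-1.05 to -0.79), Lars2, Sars2 and Yars2. Eprs had the highest ratio of that comparison, 0.43 (0.39 to 0.48). With the fatostatin library in place of IL4 as the reference, a choice made after the data were seen, 7 cytosolic members were 1.5-fold higher with 25-HC (7.12% of all genes), 11 with PF429424 (4.18%) and 9 with 1,10-Phen (14.7%), and 1, Vars, was lower with 1,10-Phen (20.3%).

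The mitochondrial class had lower levels and smaller ratios. On the FPKM scale, which divides by transcript length, the IL4 medians were 28.9 for cytosolic and 6.73 for mitochondrial members. The cytosolic range ran from 14.2 FPKM (Mars) to 88.9 FPKM (Rars) and the mitochondrial range from 2.58 (Pars2) to 17.2 (Iars2), so that the ranges overlapped only through Iars2 and Tars2. Of the 17 members, 0 were 1.5-fold higher or lower with fatostatin, where under 3% of all genes were called in either direction, and 0 with PF429424, where 7.39% of all genes were higher and 11.3% lower.

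Yars2, the mitochondrial tyrosine enzyme, had 11.8 normalized CPM with IL4, 14.0 with fatostatin, 18.0 with betulin, 19.8 with 25-HC, 16.1 with PF429424 and 10.7 with 1,10-Phen. It was the single mitochondrial member called higher, with ratios of 0.61 (0.38 to 0.85) with betulin and 0.74 (0.52 to 0.98) with 25-HC. At 1 of 17 in each, against 4.98% and 9.02% of all genes, the counts were near the background. Cars2, for cysteine, went the other way, with 21.5, 18.3, 16.4, 13.9, 17.9 and 14.5 in that order. IL4 was its highest library and 25-HC its lowest, at -0.62 (-0.84 to -0.41). Lars2, for leucine, had 24.8, 26.7, 27.3, 24.8, 25.3 and 12.6, and Sars2, for serine, had 12.1, 10.0, 11.3, 13.5, 10.4 and 5.62. Both were lowest with 1,10-Phen, clear of the other 5 libraries, at -0.97 (-1.21 to -0.75) for Lars2 and -1.09 (-1.44 to -0.77) for Sars2. The 1 member lower with 25-HC and the 2 lower with 1,10-Phen compare with 12.5% and 20.3% of all genes, so neither count exceeded the background. Of the 17 mitochondrial members, 10 had their lowest level in the 1,10-Phen library, as did 6 of the 20 cytosolic members. The share of all genes that were lowest in that library was not computed.

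Among the remaining 13 mitochondrial genes no ratio met the rule. Rars2, for arginine, came closest above IL4 with 18.0, 23.7, 22.5, 22.9, 25.6 and 18.3 normalized CPM. Iars2, for isoleucine and the most abundant of the class, stayed between 57.4 and 66.5 normalized CPM. Hars2, for histidine, whose gene lies head to head with Hars and overlaps it by 4 bases, stayed between 18.1 and 20.6 while Hars spanned 37.0 to 69.9. Aars2, Ears2, Fars2, Nars2, Pars2, Tars2 and Vars2 varied by at most 1.38-fold from their lowest to their highest library, and Mars2 and Wars2 by 1.44-fold and 1.504-fold.

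For the same amino acid, the cytosolic gene usually had the higher ratio. Pairing gave 16 pairs, with Farsa and Farsb both set against Fars2, and the cytosolic ratio was the higher in 11 pairs with fatostatin, 13 with betulin, 16 with 25-HC, 16 with PF429424 and 12 with 1,10-Phen. The median difference, cytosolic minus mitochondrial log2 ratio, was 0.04, 0.20, 0.58, 0.71 and 0.98 in that order. Cysteine had the widest gap with 25-HC (1.75) and PF429424 (1.56), and serine with 1,10-Phen (2.34), where Sars and Sars2 stood on opposite sides of IL4. The exceptions with 1,10-Phen were histidine (-0.41), valine (-0.37) and both phenylalanine subunits. In FPKM, Aars had 10.3 times the level of Aars2 with IL4 and 28.9 times with PF429424.

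**Figure D4:**
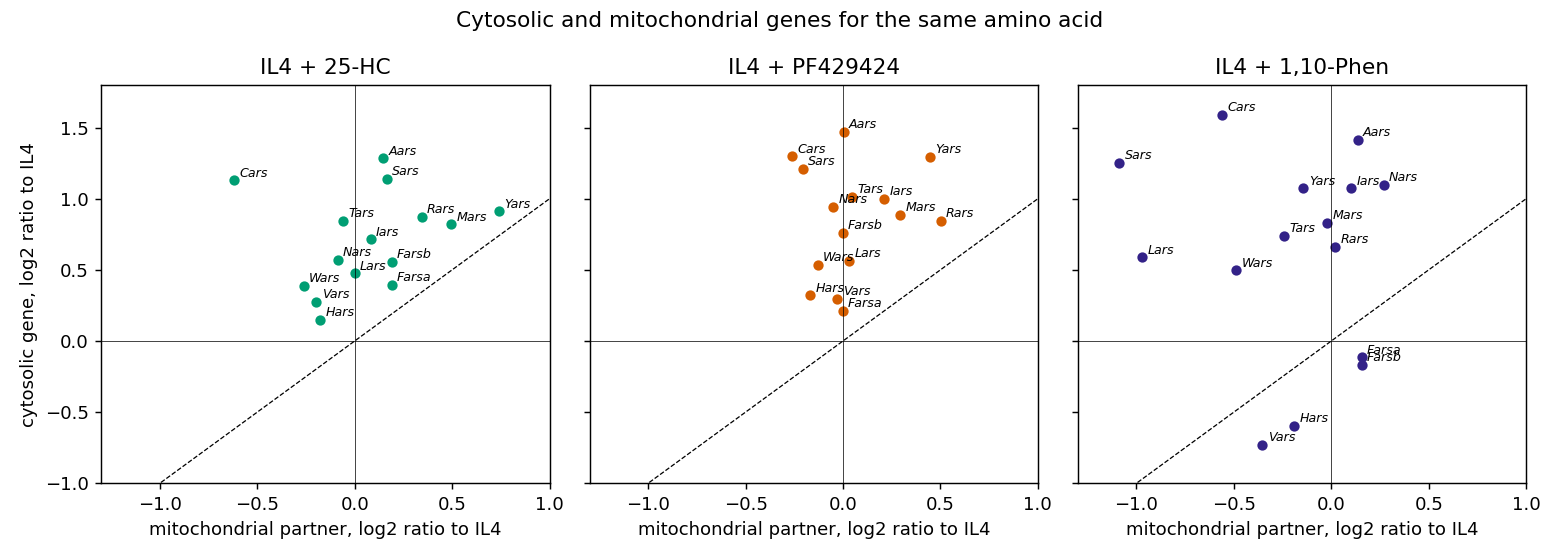
Log2 ratio to IL4 of each cytosolic gene (y axis) against that of the mitochondrial gene for the same amino acid (x axis), with 1 panel for each of 25-HC, PF429424 and 1,10-Phen and 1 labelled point for each of 15 of the 16 pairs. The dashed line marks equal ratios. All points lie above it with 25-HC and PF429424, and 4 lie below it with 1,10-Phen.

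Other genes of tRNA charging were taken from lists chosen by function. The 3 scaffold proteins of the complex, Aimp1, Aimp2 and Eef1e1, had 2 members 1.5-fold higher with 25-HC (Aimp2 at 0.65 and Eef1e1 at 0.81), 1 with PF429424 (Eef1e1 at 0.98) and 0 with 1,10-Phen. Of 10 genes of tRNA maturation and export, 2 were higher with 25-HC and 2 with PF429424, both times Xpot and Trmt10c. Of all genes compared, 9.02% were higher with 25-HC, 7.39% with PF429424 and 15.3% with 1,10-Phen, and lists of 3 and 10 genes allow no close comparison. Xpot, the exporter of tRNA from the nucleus, had 103 normalized CPM with IL4, 108 with fatostatin, 117 with betulin, 188 with 25-HC, 193 with PF429424 and 223 with 1,10-Phen, which is the library order of Nars. With 1,10-Phen Xpot was the 1 gene of that list called higher, and Pop1 and Thg1l, which act on the 5′ ends of tRNAs, were lower at -0.89 and -1.31, counts near or below the 15.3% and 20.3% of all genes higher and lower there. The 5 cytosolic elongation factors and the 4 genes of mitochondrial transamidation and formylation had 0 called in any library. Of the 4 mitochondrial elongation factors, Tsfm was lower with 1,10-Phen at -0.78. Of 7 measured synthetase-like, editing and selenocysteine genes, Aarsd1 (-0.88) and Dtd1 (-0.70) were lower with 1,10-Phen and 0 were called in the other comparisons with IL4. In lists this short, these counts are near the 20.3% of all genes that were lower with 1,10-Phen.

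The ATF4 stress response list was read over its 22 genes with a CPM of at least 1 in the IL4 library itself, a filter chosen after the data were seen, since others passed only where they were high. Of these, 0 were 1.5-fold higher with fatostatin (2.46% of all genes), 11 with betulin (4.98%), 18 with 25-HC (9.02%), 21 with PF429424 (7.39%) and 19 with 1,10-Phen (15.3%). None of the 22 was lower, where 2.77% to 20.3% of all genes were. The list medians were 0.17, 0.58, 0.99, 1.28 and 1.48, above the cytosolic synthetase median in each library. Atf4 had 160.3 normalized CPM with IL4, 204 with fatostatin, 301 with betulin, 453 with 25-HC, 434 with PF429424 and 545 with 1,10-Phen. Asns, the asparagine synthetase of amino acid synthesis and not a tRNA enzyme, had 21.7, 25.1, 45.02, 116, 202 and 183. Both had the same 3 libraries on top as the cytosolic synthetases, and betulin next. None of the 4 eIF2alpha kinases was called, with ratios between -0.45 and 0.20 over the 5 libraries. Of all genes, 2.46% to 15.3% were higher and 2.77% to 20.3% lower, so a list this short allows no close comparison. The kinase values are RNA levels, and kinase activity was not measured. These comparisons also share the IL4 library, and no test of a link between the lists was run.

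**Figure D5:**
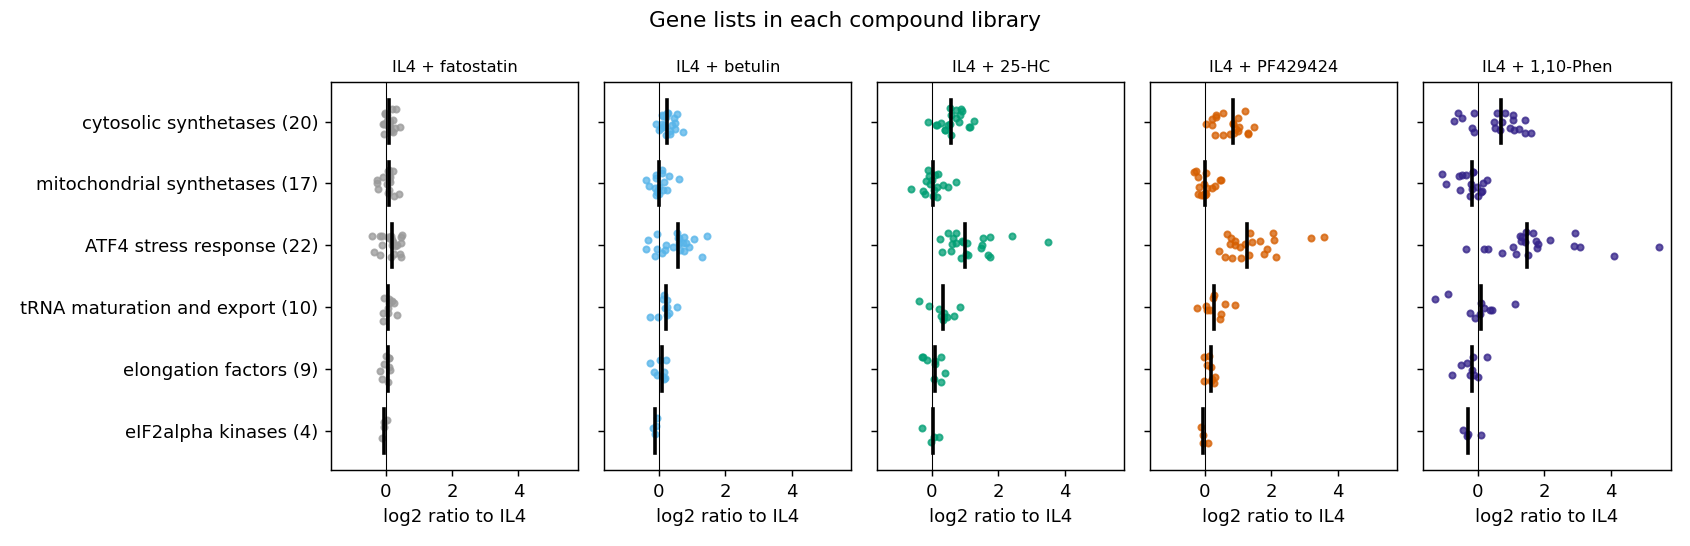
Log2 ratio to IL4 (x axis) of the genes of 6 lists (rows, number of genes in brackets), with 1 panel per compound, 1 point per gene (spread vertically for legibility) and a black bar at each median. The cytosolic synthetase medians go from 0.11 with fatostatin to 0.85 with PF429424, the mitochondrial medians stay between -0.19 and 0.09, and the ATF4 medians reach 1.48 with 1,10-Phen.

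The genes outside the family whose levels over the 6 libraries were most like the mean of the cytosolic class were Tcea1, Riox2, Mthfd2, Golga7 and Rnf41, with Pearson r of 0.998, 0.996, 0.996, 0.995 and 0.993, out of 7748 genes with a CPM of at least 10 in every library. These are descriptions over 6 points that share the same libraries. Likeness says nothing of size: Mthfd2, a mitochondrial folate enzyme, had a ratio of 2.15 with PF429424, whereas Rnf41 had 0.27. Within the class, whose mean holds each member, r was highest for Tars (0.997), Yars (0.987) and Aars (0.984) and lowest for Qars (-0.29), Hars (0.07) and Vars (0.09).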

How the data were processed

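The members and gene lists were chosen with earlier results of these data known. The deposited tables give, per the file headers, an expected count per gene that the authors did not scale between libraries; 30.5% to 32.0% of values per library were not whole numbers. They also give FPKM, per the file headers. Tools in the submitters' processing notes, listed without roles, are RSEM 1.2.12, DESeq2, Bowtie2 and HISAT2; no source used here gives strand. Estimated counts were rounded to whole numbers and scaled with TMM factors (0.900 to 1.06; edgeR 4.0.16, R 4.3.3). Log2 ratios used a prior count of 2. The ratio procedure was tested on simulated data. The simulated counts held counting error only and no spread between cultures, so they cannot check calls that rest on 1 library per treatment. With 1 library per treatment no test was run. Values in all libraries were given for members at least 1.5-fold from IL4 in any comparison and for members named for their role, and some others. Positions and promoters came from RefSeq GRCm38.p6, matched by gene ID. The alternatives were DESeq2 1.42.0 size factors, library totals, prior counts of 0.5 and 10, no filter, a CPM of at least 5, log2(FPKM + 1), leaving out Gars and Kars, the mean over members and other reference libraries. Python 3.11.15, numpy 2.4.6, pandas 2.3.3, SciPy 1.17.1 and matplotlib 3.10.9 were used. A single mitochondrial member is counted in the class values but not reported singly here.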

Additional observations from a re-analysis of the deposited data

How the results depend on the processing

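No paired analysis was possible because each treatment has 1 library. Class medians and counts of members kept their direction and stayed within the limits set for them under DESeq2 size factors, both other prior counts, both other filters and leaving out Gars and Kars, and the medians also under the mean over members. Set against the median of the 6 libraries, which 3 high libraries raise, the cytosolic median turned to -0.18 with betulin and -0.26 with fatostatin and came to 0.22 with 25-HC. With log2(FPKM + 1) the mitochondrial median with fatostatin was 0.013, 4 mitochondrial members were lower with 1,10-Phen, and 0 were higher with betulin. Library totals moved the median of all genes to -0.11 with PF429424 and -0.25 with 1,10-Phen. They left 0 mitochondrial members higher with betulin, 6 lower with 1,10-Phen, and 9 cytosolic members higher and 3 lower with 1,10-Phen, where 9.83% of all genes were higher and 29.3% lower. Over all genes, the share of calls that were higher went from 39.5% to 22.7% with PF429424, from 43.0% to 25.1% with 1,10-Phen and from 47.0% to 36.5% with fatostatin. With the fatostatin library as reference, 0 cytosolic members were higher with betulin, 1 was lower with 1,10-Phen, and 0 mitochondrial members were higher with betulin, 0 higher with 25-HC and 0 lower with 25-HC. Of the 185 single ratios, 51 moved beyond their counting interval with library totals and 50 with log2(FPKM + 1), and no called member changed direction. Spread between cultures cannot be estimated from these libraries.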
